A study of Mus musculus with 8 samples.

Results

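The 40 genes described here are cell cycle genes, and the 40 were found among the 32285 genes of a single-cell table of neonatal mouse lung. They were chosen by name: 7 genes of replication licensing, 7 of nucleotide supply and DNA synthesis, 6 cyclins, their kinase and its partners, 7 mitotic kinases and parts of the machinery that destroys mitotic proteins, 10 genes of the kinetochore and spindle, and 3 chromosome proteins. Their levels were compared between 11 cell groups, each set by 1 or a few marker genes. The mice were C57BL6/J pups titled WT, all exposed to lipopolysaccharide before birth (day 14 of gestation), and then kept from birth in 21% oxygen (4 libraries) or in 65% oxygen (4 libraries) as a model of bronchopulmonary dysplasia. Lungs were taken at 5 days, frozen in DMSO and serum, thawed, and sorted for endothelial, epithelial and immune cells before droplet sequencing of transcript 3′ ends. Both groups carry the lipopolysaccharide exposure, also the air group whose disease state is given as healthy. The deposited table pools 11806 cells, and 0 of the 8 libraries could be matched to its columns, so air and hyperoxia were not compared here and the whole table is 1 sample with no replicate check. Every interval below is a 95% interval for counting error alone, exact binomial for a share of cells and exact Poisson for a level. No p-value is given.

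Cells that prepare to divide first load the MCM helicase onto DNA, then raise the enzymes that make nucleotides and copy the genome. Later they accumulate cyclin A and cyclin B with the kinase Cdk1, build the spindle, and destroy the cyclins through the anaphase-promoting complex. In the lung around birth, epithelium, capillaries and resident macrophages are all known to expand by division. Transcription of the early genes is classically driven by E2F factors, and that of the late genes by the DREAM and MuvB complexes, which bind a short element named CHR, together with CCAAT boxes bound by NF-Y.

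These elements were visible in the promoters of the members. RefSeq promoter windows (build GRCm38.p6, 300 bases each) were found for 33 of the 40 genes, 35 windows in all; Aurkb, Ccna2, Ccne2, Mcm4, Stmn1, Gins2 and Tpx2 had no entry. The CHR letters searched were TTTGAA or TTCGAA, the E2F letters TTTCCCGC, TTTGGCGC or TTTCGCGC, and the NF-Y letters CCAAT, each on both strands. CHR letters were in 14 of 19 windows of the mitosis genes (73.7%) and in 2 of 13 of the replication genes (15.4%), against 19.2% of all 32851 windows. E2F letters ran the other way, with 5 of 13 replication windows (38.5%), 1 of 19 mitosis windows (5.26%) and 1.84% of all windows. CCAAT was frequent in both, at 89.5% of mitosis and 76.9% of replication windows against 37.4% of all. The median GC content was 60.7% for the mitosis windows, 57.3% for the replication windows and 52.7% over all, which bears on how often such short words occur. A match is a string of letters, not a measured binding site. The E2F words can overlap one another, and among words of different kinds 1 overlap was found, between an E2F and a CCAAT match in a window of Mcm7. The 5 windows below show the contrast, with 3 genes of mitosis or chromosome structure first and 2 helicase subunits after them. They read 5′ to 3′ along each gene, and capitals mark every match. Top2a, which encodes the topoisomerase that untangles sister chromatids, lies at chr11:99024140-99024439 on the minus strand with 4 CHR and 6 CCAAT matches. Ccnb2 (cyclin B2) at chr9:70421505-70421804, minus strand, holds 2 CHR and 3 CCAAT matches. Cdk1 at chr10:69352863-69353162, minus strand, holds 2 CHR and 3 CCAAT matches and the single E2F match among mitosis genes. Mcm6 at chr1:128359656-128359955, minus strand, holds 0 CHR, 2 CCAAT and 3 E2F matches. Mcm5 at chr8:75109259-75109558, plus strand, holds 0 CHR, 3 CCAAT and 2 E2F matches.
Top2a: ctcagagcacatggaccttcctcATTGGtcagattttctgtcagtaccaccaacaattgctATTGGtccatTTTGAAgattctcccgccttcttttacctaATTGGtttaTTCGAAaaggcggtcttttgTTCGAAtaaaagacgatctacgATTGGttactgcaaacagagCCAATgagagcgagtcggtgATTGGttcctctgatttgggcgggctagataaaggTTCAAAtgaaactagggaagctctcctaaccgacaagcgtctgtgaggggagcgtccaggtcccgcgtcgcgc
Ccnb2: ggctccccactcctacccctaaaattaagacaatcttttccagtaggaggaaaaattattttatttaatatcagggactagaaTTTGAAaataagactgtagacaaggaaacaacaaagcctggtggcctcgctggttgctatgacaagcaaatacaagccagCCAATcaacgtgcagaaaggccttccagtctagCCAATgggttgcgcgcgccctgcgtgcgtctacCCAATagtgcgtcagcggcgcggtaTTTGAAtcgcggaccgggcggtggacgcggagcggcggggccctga
Cdk1: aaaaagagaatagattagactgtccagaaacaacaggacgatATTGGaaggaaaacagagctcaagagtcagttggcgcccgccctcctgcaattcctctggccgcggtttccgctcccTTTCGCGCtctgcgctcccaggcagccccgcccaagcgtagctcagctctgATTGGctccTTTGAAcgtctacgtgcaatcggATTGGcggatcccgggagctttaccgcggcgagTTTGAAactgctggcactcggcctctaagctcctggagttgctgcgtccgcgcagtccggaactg
Mcm6: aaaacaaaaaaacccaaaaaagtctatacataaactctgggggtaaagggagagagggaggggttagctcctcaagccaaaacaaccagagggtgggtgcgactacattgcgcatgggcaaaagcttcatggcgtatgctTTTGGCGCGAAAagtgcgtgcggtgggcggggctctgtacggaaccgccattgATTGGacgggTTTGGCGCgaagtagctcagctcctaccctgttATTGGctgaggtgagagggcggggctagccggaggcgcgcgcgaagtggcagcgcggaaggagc
Mcm5: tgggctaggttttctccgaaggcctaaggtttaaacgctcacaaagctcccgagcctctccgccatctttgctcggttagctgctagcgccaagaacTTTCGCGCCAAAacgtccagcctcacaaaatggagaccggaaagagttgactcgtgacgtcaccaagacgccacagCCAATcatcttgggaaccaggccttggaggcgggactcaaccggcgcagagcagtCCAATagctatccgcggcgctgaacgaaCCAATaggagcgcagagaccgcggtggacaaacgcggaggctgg

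The groups were set by marker counts per cell, in unique molecular identifiers (UMIs, 1 per captured transcript). Alveolar type 2 (AT2) cells had at least 3% of UMIs from Sftpc (737 cells), alveolar type 1 (AT1) cells at least 3 Rtkn2 (124), endothelium at least 2 of Cdh5 and Cldn5 (609), alveolar macrophages at least 2 of Ear1 and Marco (966), and interstitial macrophages at least 5 of C1qa and C1qb (371). Monocytes had at least 3 of Ly6c2 and F13a1, the classical arm, or at least 2 of Ace and Adgre4, the nonclassical arm (3723 cells). Gamma-delta T cells had at least 2 Trdc (304), natural killer (NK) cells at least 1 Ncr1 (213), alpha-beta T cells at least 1 each of Trac and Cd3e (389), B cells at least 2 Cd79a (143), and the Dppa5a-high cells at least 10 Dppa5a (349). Of all cells, 6671 met exactly 1 rule, 613 met several and were counted in each, and 4522 met none.

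Other markers matched most names. The named group had the highest level of 6 of 6 AT2, 6 of 6 AT1, 7 of 7 endothelial, 6 of 6 NK and 6 of 6 B cell markers, and 5 of 6 for alveolar macrophages. For gamma-delta T and for alpha-beta T cells it was 4 of 6 each, and these groups share 58 cells. The macrophage and monocyte names were less clear. The interstitial macrophage group led 4 of 6 of its markers, with Mrc1 at 202 CPM, its UMIs scaled to a common total, against 904 in alveolar macrophages and Folr2 at 0.486 CPM, and it also exceeded the monocyte group in Csf1r, Ccr2, Fn1 and Lyz2. The monocyte group led 1 of 6 of its own markers. The Dppa5a-high cells led all 7 pluripotency markers, among them Pou5f1 and Nanog. These genes define pluripotent cells rather than a lung cell type, and the group is called here by its defining gene. The summed level of 4 erythroid markers was at most 2.97 CPM and that of 5 fibroblast markers at most 14.9 CPM in the 11 groups.

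The columns fall into 8 runs of barcodes with 282 to 3355 cells each and median depths of 3246 to 11587 UMIs. 12 barcodes occur in more than 1 run. The labels do not say which library a run is, so runs are given as single values or ranges. Run 6 stood apart: 19% of its cells held at least 2 UMIs of Mki67 and Top2a together, against 7.12% to 10.7% in the other 7 runs. Its Mki67 level was 106 CPM against 30 to 51 CPM elsewhere, while its summed level of the 40 genes, 1814 CPM, lay within the 1114 to 2724 CPM of the others. The number of Mki67 UMIs per Top2a UMI ranged from 0.233 in run 4 to 1.59 in run 2. Shares are therefore given with and without run 6.

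Cells with at least 2 UMIs of Mki67 and Top2a together, called positive cells from here on, made up 9.48% of the table (1119 cells, interval 8.96% to 10%) and 7.87% without run 6. Mki67 encodes a coat protein of mitotic chromosomes that serves as the standard proliferation marker. Of the remaining cells, 9828 held 0 and 859 held 1 such UMI; 253 cells sat at exactly 2 and 866 at 3 or more. Positive cells were deeper, with a median of 8867 UMIs against 4187, and held 17.4% of all UMIs. For that reason each share is also given after every cell was thinned to 2000 UMIs, which leaves out 1423 shallower cells.

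The share of positive cells was highest in Dppa5a-high cells and then in the 3 groups of T and NK cells, in the middle for AT1, B, alveolar macrophage and endothelial cells, and lowest for AT2, interstitial macrophages and monocytes. It was 79.1% in Dppa5a-high cells (276 of 349, interval 74.4% to 83.2%). In gamma-delta T cells it was 33.6% (102 of 304, 28.3% to 39.2%), in NK cells 30.5% (65 of 213, 24.4% to 37.2%) and in alpha-beta T cells 27.8% (108 of 389, 23.4% to 32.5%). The intervals of the 3 T and NK groups overlap. Alveolar macrophages, the resident phagocytes of the airspace, had 11% (106 of 966, 9.07% to 13.1%) and endothelium 10.8% (66 of 609, 8.48% to 13.6%). AT1 cells, the flat gas exchange epithelium, had 12.9% (16 of 124, 7.56% to 20.1%) and B cells 11.9% (17 of 143, 7.08% to 18.4%). The intervals of these middle groups overlap as well. AT2 cells, the surfactant producers and progenitors of AT1 cells, had 5.43% (40 of 737, 3.91% to 7.32%), interstitial macrophages 5.39% (20 of 371, 3.32% to 8.2%) and monocytes 4.7% (175 of 3723, 4.04% to 5.43%).

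**Figure D1:**
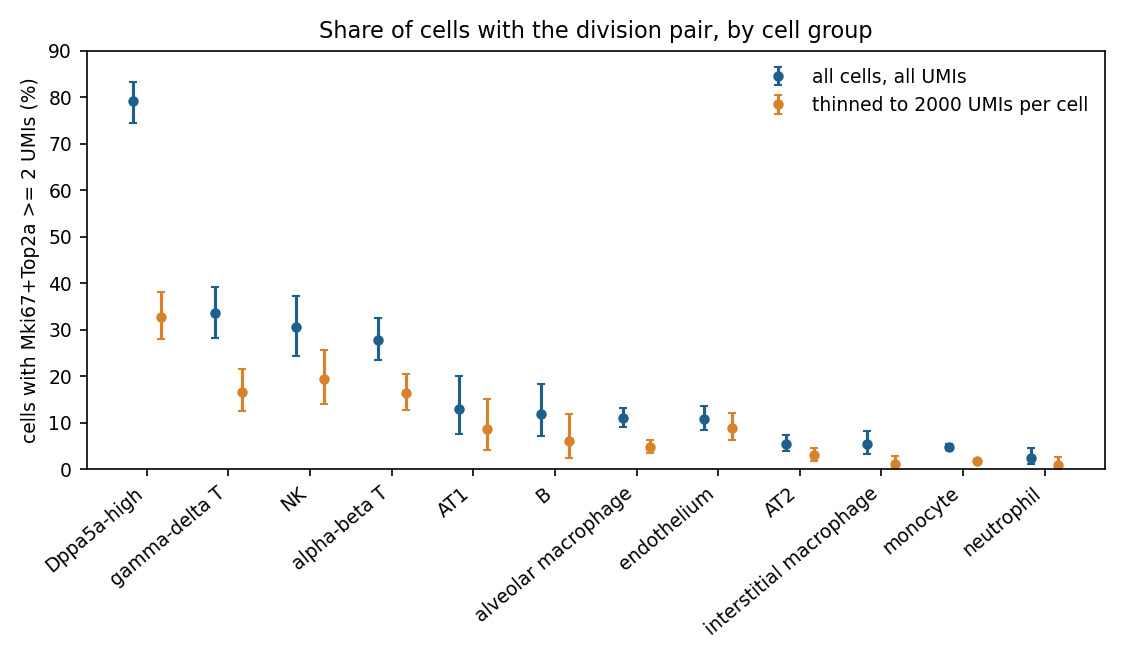
Share of cells with at least 2 UMIs of Mki67 and Top2a together (y axis, percent) in each cell group (x axis), as counted and after thinning to 2000 UMIs, with exact binomial 95% intervals. Dppa5a-high cells stand at 79.1% as counted and 32.8% thinned, and the 3 T and NK groups lie between 27.8% and 33.6% as counted.

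Neutrophils, which mostly leave the bone marrow after their last division, were taken as the background group. Whether their positive cells come from free RNA, mixed droplets or dividing cells was not tested. Cells with at least 5% of UMIs from S100a8 and S100a9 had 2.37% positive cells (8 of 338, 1.03% to 4.61%) at a median depth of 5814 UMIs. Of these 8 cells, 7 also met the monocyte rule, and neutrophils that did not had 0.41% (1 of 244, 0.0104% to 2.26%). Thinned to equal depth the share was 0.932% in neutrophils (0.193% to 2.7%), 1.11% in interstitial macrophages (0.303% to 2.81%) and 1.68% in monocytes (1.27% to 2.17%). The intervals of interstitial macrophages and of monocytes overlap that of neutrophils, and the nonclassical arm of the monocytes had 1.07%, so neither group is read as above the background at this depth. In interstitial macrophages the combined Mki67 and Top2a level was 24.1 CPM against 32.4 CPM (25.8 to 40.2) in neutrophils. Monocytes were above neutrophils in this level, at 60.2 CPM (57.2 to 63.3). As counted, the share intervals of both groups lay above that of neutrophils outside the monocyte rule. Thinned, those neutrophils had 1 positive cell of 229. Thinned shares were 2.98% in AT2 cells (1.8% to 4.61%), 4.82% in alveolar macrophages (3.55% to 6.37%) and 5.98% in B cells (2.44% to 11.9%). They were 8.55% in AT1 cells (4.17% to 15.2%) and 8.9% in endothelium (6.37% to 12%). In alpha-beta T, gamma-delta T, NK and Dppa5a-high cells they were 16.3%, 16.7%, 19.4% and 32.8%. The intervals of AT2 and B cells also overlap that of neutrophils, so their thinned shares are not read as above the background. The combined level was above that of neutrophils in AT2 (72.1 CPM, 64.9 to 79.8) and B cells (254 CPM, 218 to 295). The order of alveolar macrophages and endothelium turned with thinning.

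The combined level of the pair does not place Dppa5a-high cells above the lymphocytes. It was 527 CPM (508 to 547) in Dppa5a-high, 554 (526 to 584) in gamma-delta T, 564 (523 to 607) in NK and 552 (526 to 579) in alpha-beta T cells. Their share of positive cells was higher at a median depth of 13587 UMIs, against 4310 to 5946 in the 3 other groups. In run 6, where Dppa5a-high and gamma-delta T cells had like depths (medians of 4871 and 4931 UMIs), the shares were 78.8% and 51.7%. The share was thus higher in Dppa5a-high cells, also thinned, while the combined level was not, and no order of the groups is read where these measures differ. The next levels were 315 CPM in AT1, 254 in B, 224 in endothelium, 136 in alveolar macrophages, 72.1 in AT2 and 60.2 in monocytes.

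Between runs the shares differed widely, and several orders held in every run with at least 10 cells of both groups. NK cells were above alveolar macrophages in 7 of 7 runs and alpha-beta T cells in 6 of 6, gamma-delta T cells in 5 of 7. Dppa5a-high cells were above gamma-delta T, NK and alpha-beta T cells in 5 of 5 runs each. Alveolar macrophages were above monocytes in 8 of 8 runs and above interstitial macrophages in 6 of 6. Among the lymphocytes the order was not settled, since gamma-delta T cells were above alpha-beta T cells in 1 of 6 runs although the pooled share was higher. Gamma-delta T cells ranged from 0% (run 8, 10 cells) to 51.7% (run 6, 89 cells) with a median of 23.1%. The median over runs was 29% for NK and 32.1% for alpha-beta T cells. Run 6 was the highest run in 7 of the 11 groups. Without run 6 the pooled share was 26% in gamma-delta T, 30.3% in NK, 26.7% in alpha-beta T, 10.6% in alveolar macrophages, 8.8% in endothelium, 4.3% in AT2, 4.01% in interstitial macrophages, 3.65% in monocytes, 13.4% in AT1, 11.4% in B and 79.3% in Dppa5a-high cells. B cells came mostly from run 7, with 116 of 143 cells.

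**Figure D2:**
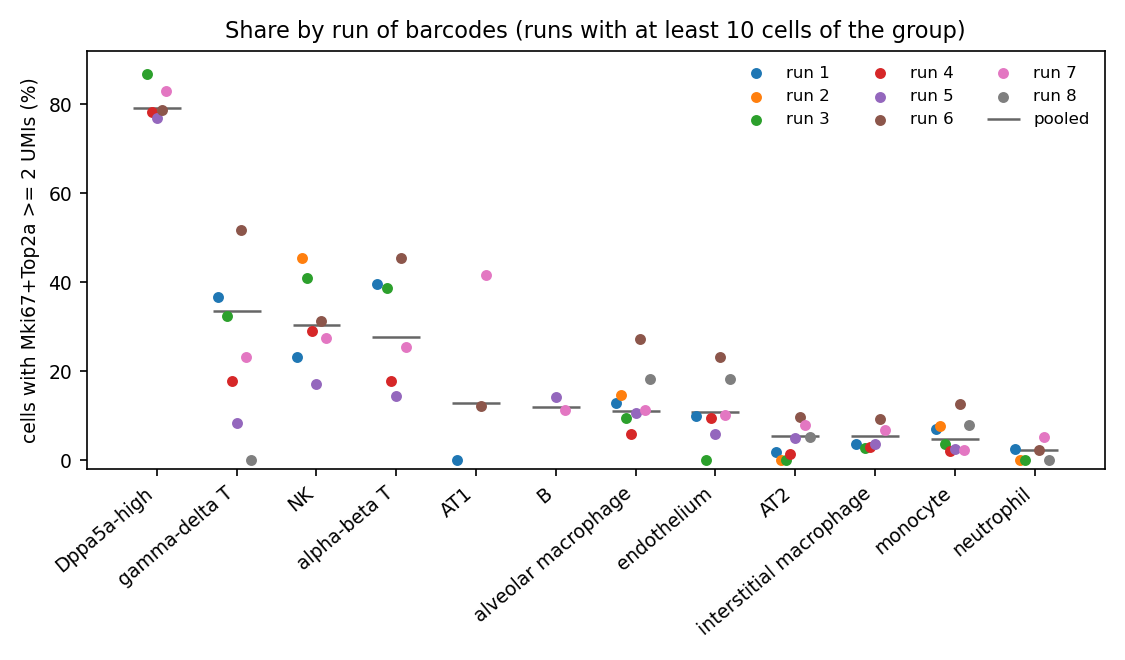
Share of positive cells (percent) in each of the 8 runs of barcodes, by cell group, for runs with at least 10 cells of the group. NK and alpha-beta T cells lie above alveolar macrophages in every run shown for both, and run 6 is the highest run in 7 of the 11 groups.

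Some shares rested on cells that carry a second group's markers. Of the 16 positive AT1 cells, 11 held at least 2 Dppa5a UMIs and 8 met the Dppa5a-high rule; without the cells holding 2 or more Dppa5a UMIs the AT1 share was 4.46%. It was also 20% without run 1, which had 44 AT1 cells of which 0 were positive. At least 2 Dppa5a UMIs were also held by 11 of 40 positive AT2 cells and 14 of 66 positive endothelial cells. Among positive monocytes 17 of 175 did. The values of positive cells by group given below include such cells. Of the 175 positive monocytes, 18 also met the gamma-delta T, 18 the NK and 17 the alpha-beta T rule, and monocytes that met no other rule had 2.88%. The endothelial rule shares 182 cells with the nonclassical monocyte arm, which is partly set by Ace, an enzyme of capillary endothelium. Within the monocytes the classical arm had 8.21% positive cells (114 of 1389) and the nonclassical arm 3.02% (81 of 2686). Thinned, they had 2.35% and 1.07%, and the classical arm was higher in 7 of 8 runs.

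Capillary types within endothelium and alpha-beta T cell subsets were looked at with rules chosen after the values were seen. Endothelial cells with Car4 or Ednrb, genes of the aerocyte capillary, had 7.2% positive cells (4.39% to 11%), and those without had 13.6% (10.2% to 17.7%). These intervals overlap. Thinned, the shares were 5.88% and 11.2%. Endothelial cells with Gpihbp1 or Plvap, genes of the general capillary, had 12.5% (9% to 16.8%) against 9.18% (6.19% to 13%) in those without, and the intervals overlap. Alpha-beta T cells with Cd8a or Cd8b1 had 28.1% (21.8% to 35.2%) and those without had 27.5% (21.5% to 34.1%). Thinned, the order turned, at 14.1% and 18.5%, and no difference is read from this split.

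Summed over the 40 genes, lymphocytes of the T and NK groups held about the same level and exceeded every other group. The level was 7254 CPM (7159 to 7349) in alpha-beta T, 7128 (7025 to 7233) in gamma-delta T and 7123 (6975 to 7273) in NK cells. Dppa5a-high cells had 5535 CPM (5473 to 5598). B cells followed with 2868, AT1 with 2309, endothelium with 2113, alveolar macrophages with 1899, monocytes with 1404, AT2 with 1186 and interstitial macrophages with 615 CPM. The AT1 sum was 1140 CPM without cells holding 2 or more Dppa5a UMIs, 830 CPM in cells of no other group and 1221 CPM with equal weight per cell. With equal weight B cells had 1839 CPM and endothelium 1953 CPM, so the order of B, AT1 and endothelial cells is not settled. Hmgb2, a chromatin protein also made by cells at rest, held 36.5% of all member UMIs, 74.1% in neutrophils and 22.8% in Dppa5a-high cells. Without Hmgb2 and Stmn1, which encodes a microtubule-destabilising protein, Dppa5a-high cells had the highest sum, 4079 CPM, above gamma-delta T (3922), alpha-beta T (3841) and NK cells (3634). With every cell given the same weight, the sums of all 40 were 5714 CPM in NK, 5616 in Dppa5a-high, 5415 in gamma-delta T and 5114 in alpha-beta T cells. The order of these 4 groups thus depends on those 2 genes and on the weighting.

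Against all other cells, nearly all of the 40 genes passed a 2-fold difference in the lymphocytes and in Dppa5a-high cells. In gamma-delta T cells 37 of 40 were at least 2-fold higher, where 11.2% of all genes tested passed. The counts were 34 of 40 in NK cells (11.4% of all genes) and 38 of 40 in alpha-beta T cells (10.5%). The median log2 difference of the 40 was 1.83, 1.71 and 1.7, beside -0.08, -0.06 and -0.1 over all genes tested, with 1 CPM added to each value. The members that did not pass in gamma-delta T cells were Aurka, Gins2 and Kif23. In Dppa5a-high cells 35 of 40 passed, where 29.3% of all genes did, with medians of 2.26 and 0.14; Hmgb2, Mki67, Pclaf, Pcna and Stmn1 did not. A gene was tested where it reached 10 CPM in the group or in the other cells, and the other cells always include the remaining high groups.

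Against all other cells, the counts of the middle groups were near or below the background. In B cells 6 of 40 were at least 2-fold higher (11.5% of all genes), in AT1 cells 9 of 37 tested (26.6%), in endothelium 3 of 38 (22.4%) and in alveolar macrophages 1 of 38 (5.84%). That 1 gene was Ccne2, the cyclin of entry into DNA synthesis. The 3 in endothelium were Kif11, a spindle motor, Stmn1 and Mki67. The median log2 difference of the members was 0.485 in B, 0.578 in AT1, 0.345 in endothelium and 0.07 in alveolar macrophages. Over all genes tested it was -0.03, 0.301, 0.228 and -0.08 in the same order. With Dppa5a-high cells left out of the reference, the count rose to 14 of 38 in endothelium (24.6% of all genes), to 20 of 37 in AT1 cells (28.5%) and to 15 of 40 in B cells (13.5%), and was 2 of 36 in alveolar macrophages (5.91%). In that order the medians of the members were 0.829, 0.976, 0.864 and 0.519, beside 0.286, 0.336, 0.0047 and -0.03 over all genes tested. The AT1 count rested on Dppa5a-holding cells: with cells of 2 or more Dppa5a UMIs left out of both sides it was 0 of 31 (24.6% of all genes), and in endothelium it was 11 of 36 (24.8%) and in B cells 7 of 36 (13.5%). The medians of these 3 groups were then -0.388, 0.649 and 0.657, beside 0.162, 0.269 and -0.01 over all genes tested. In the reference without Dppa5a-high cells, 39 of 40 passed in gamma-delta T (12.6%), 40 of 40 in NK (12.8%) and 39 of 40 in alpha-beta T cells (12.1%). In AT2 cells 0 of 36 were higher (18.3%) and 17 of 36 at least 2-fold lower, where 25.4% of all genes were. In interstitial macrophages 0 of 37 were higher (2.99%) and 34 of 37 lower (16.4%), and in monocytes 0 of 38 were higher (5.09%) and 33 of 38 lower (14.8%). Their medians were -1.87 and -1.45 log2, beside -0.25 and -0.17 over all genes tested. Without Dppa5a-high cells in the reference, 26 of 31 were lower in interstitial macrophages (14.2% of all genes) and 22 of 33 in monocytes (11.6%), and in AT2 cells 8 of 31 (24.6%). None of these tested members was higher there in AT2 cells (19.7% of all genes), interstitial macrophages (2.82%) or monocytes (4.52%).

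**Figure D3:**
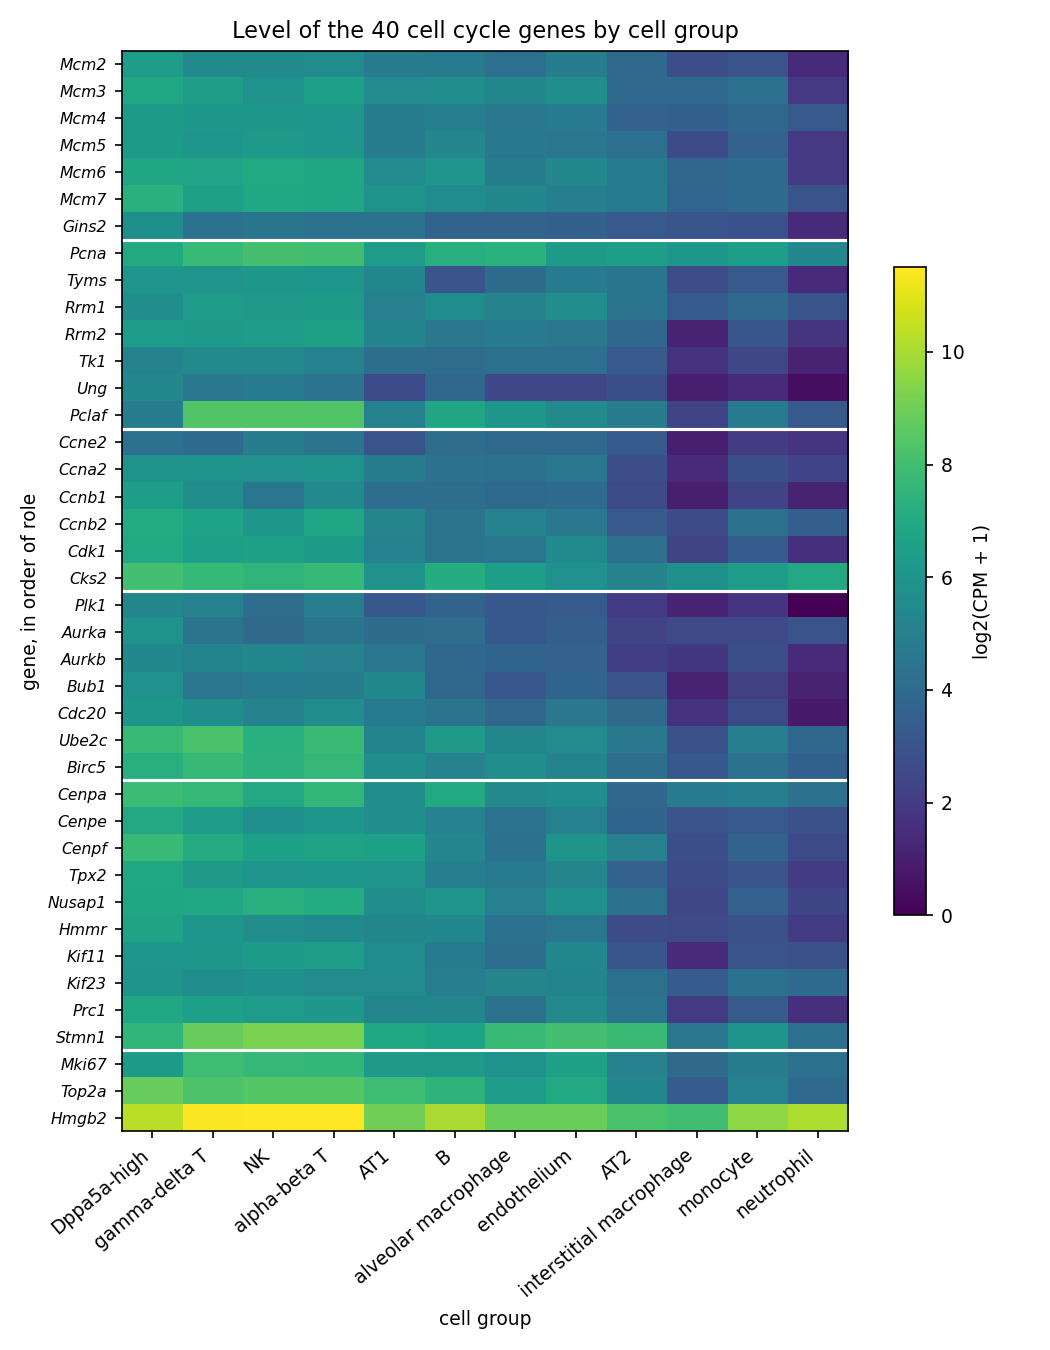
Level of each of the 40 genes (colour, log2 of CPM plus 1), ordered by role, in the 11 cell groups and in neutrophils. Columns of gamma-delta T, NK, alpha-beta T and Dppa5a-high cells are the highest. Pclaf, Stmn1 and Mki67 are lower in Dppa5a-high cells than in gamma-delta T, NK and alpha-beta T cells.

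By gene, Dppa5a-high cells led 24 members, NK cells 8, gamma-delta T cells 5 and alpha-beta T cells 3. For 23 of the 40 the leader's interval overlapped that of the next group. Interstitial macrophages were lowest for 35 members, AT2 cells for 4 and monocytes for 1. Among the 10 groups other than Dppa5a-high, NK cells led 17, gamma-delta T cells 15, alpha-beta T cells 7 and AT1 cells 1, which was Bub1, a checkpoint kinase. Of the AT1 Bub1 UMIs 40 of 41 lay in the 16 positive cells, and without cells holding 2 or more Dppa5a UMIs the AT1 level was 10.6 CPM (4.59 to 21), below alpha-beta T cells at 27.5 (22 to 34). The AT1 levels given by gene below include those cells. The B cell levels include 1 such cell, which is positive.

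The licensing genes encode the 6 subunits of the MCM helicase and Gins2, which helps activate it. Mcm7 was 158 CPM in Dppa5a-high (148 to 169), 116 in NK (98.2 to 137), 110 in alpha-beta T (98.7 to 122) and 92 in gamma-delta T cells (80.6 to 105). It was 57.5 in AT1, 46.8 in B, 39.7 in alveolar macrophages, 30.2 in endothelium, 26.8 in AT2, 15.5 in monocytes and 12.6 CPM in interstitial macrophages. The 4 high groups did not overlap with the others. Mcm3 was 115 CPM in Dppa5a-high, 88.2 in alpha-beta T, 83.3 in gamma-delta T and 59 in NK cells, and between 14.1 (AT2) and 49.9 CPM (endothelium) elsewhere; the interval of NK cells, 46.3 to 74.2, overlaps that of endothelium. Mcm6, whose promoter is shown above, was led by NK cells at 128 CPM (109 to 149), with Dppa5a-high cells at 110 overlapping. Mcm2, Mcm4, Mcm5 and Gins2 were led by Dppa5a-high cells at 81.2, 76.6, 77.3 and 52 CPM.

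The synthesis genes were led by lymphocytes except Ung, the uracil glycosylase, which was 39.6 CPM in Dppa5a-high cells. Pclaf, which binds the sliding clamp, was alike in NK (336 CPM), alpha-beta T (330) and gamma-delta T cells (328) and was 110 in B, 66.9 in alveolar macrophages, 42.6 in endothelium, 32.7 in AT1, 27.8 in AT2, 26 in monocytes and 4.14 CPM in interstitial macrophages. In Dppa5a-high cells it was 28.7 CPM (24.3 to 33.6), as low as in AT2 cells. Across the 5 runs with at least 10 Dppa5a-high cells it was 6.93 to 42.3 CPM, below gamma-delta T, NK and alpha-beta T cells of the same run in each. Pcna, the clamp itself, was 277 CPM in NK, 254 in alpha-beta T, 219 in gamma-delta T, 160 in alveolar macrophages, 146 in B and 128 in Dppa5a-high cells, and lay between 66.6 and 87.5 CPM in the other 5. Rrm2, the regulated subunit of ribonucleotide reductase, was 92.1 CPM in alpha-beta T cells (81.7 to 103), with Dppa5a-high cells at 81 CPM. Tyms, Rrm1 and Tk1 were led by NK (69.6), gamma-delta T (79.8) and gamma-delta T cells (43.4 CPM).

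Cks2, a small partner of cyclin-dependent kinases, was 270 CPM in Dppa5a-high cells (256 to 284), 210 in gamma-delta T, 207 in alpha-beta T, 184 in NK and 140 in B cells. The other 6 groups had 33.9 (AT2) to 87.4 CPM (alveolar macrophages). Ccnb2 was 133 CPM in Dppa5a-high, 110 in alpha-beta T, 101 in gamma-delta T and 67.1 in NK cells. It was 36.7 in AT1, 33.6 in alveolar macrophages, 23.7 in endothelium, 20.5 in B, 18.1 in monocytes, 8.42 in AT2 and 5.35 CPM in interstitial macrophages. Cks2 and Ccnb2 were thus highest in Dppa5a-high cells, as were Ccnb1 (86.8 CPM) and Cdk1 (126 CPM, 117 to 136, next NK at 94.6). Ccna2, cyclin A2, was 58.1 CPM in alpha-beta T and 57.6 in gamma-delta T cells, and Ccne2 was highest in NK cells at 27.5.

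Ube2c, the enzyme that starts the ubiquitin chains on cyclin B, was 293 CPM in gamma-delta T cells (272 to 315), above alpha-beta T (232), Dppa5a-high (212) and NK cells (159, 138 to 183). Without run 1 the gamma-delta T level was 224 CPM, so its place above alpha-beta T cells is not settled. Ube2c was 73.1 in B, 46.2 in endothelium, 37.7 in alveolar macrophages, 35.7 in AT1, 30 in monocytes, 23.3 in AT2 and 6.32 CPM in interstitial macrophages. Birc5, survivin of the chromosomal passenger complex, was 206 CPM in gamma-delta T, 201 in alpha-beta T, 167 in NK and 149 in Dppa5a-high cells, and 8.03 to 52.5 CPM elsewhere. The kinases Plk1, Aurka, Aurkb and Bub1 and the destruction cofactor Cdc20 were led by Dppa5a-high cells, at 37.4, 58.7, 40.9, 55.1 and 66.6 CPM. For Aurka the next group, alpha-beta T cells, had 20.5 CPM and the interval did not reach it. For Plk1, Aurkb, Bub1 and Cdc20 the intervals overlapped the next group's.

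Cenpa, the histone of centromeres, was 233 CPM in Dppa5a-high, 201 in gamma-delta T, 195 in alpha-beta T, 126 in B and 124 in NK cells. It was 51.6 in AT1, 47 in endothelium, 42.3 in alveolar macrophages, 30.1 in monocytes, 24.8 in interstitial macrophages and 12.9 CPM in AT2 cells. Cenpf, a kinetochore protein, was 224 CPM in Dppa5a-high cells (212 to 237) against 133 in gamma-delta T cells. Stmn1 was 577 CPM in NK, 576 in alpha-beta T and 457 in gamma-delta T cells, then 271 in endothelium, 228 in AT2, 219 in alveolar macrophages and 192 in Dppa5a-high cells. The lowest were 119 in AT1, 101 in B, 62 in monocytes and 22.4 CPM in interstitial macrophages. AT2 cells thus stood higher in Stmn1 than their place in the sum. Cenpe, Tpx2, Hmmr, Prc1 and Kif23 were led by Dppa5a-high, Nusap1 by NK and Kif11 by alpha-beta T cells, at 61.6 (Kif23) to 148 CPM (Nusap1).

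Of the chromosome genes, Top2a was 450 CPM in Dppa5a-high cells (432 to 468), 358 in NK, 356 in alpha-beta T, 313 in gamma-delta T and 241 in AT1 cells. It was 180 in B, 127 in endothelium, 78 in alveolar macrophages, 38.6 in AT2, 32.3 in monocytes and 9.24 CPM in interstitial macrophages. Mki67 was 241 CPM in gamma-delta T (222 to 261), 205 in NK (181 to 232) and 196 in alpha-beta T cells (180 to 212), then 96.5 in endothelium. It was 77.2 in Dppa5a-high, 74.6 in B, 74.4 in AT1, 57.9 in alveolar macrophages, 33.5 in AT2, 27.9 in monocytes and 14.8 CPM in interstitial macrophages. Without run 6 the gamma-delta T level of Mki67 was 121 CPM, since run 6 had 532 CPM there and the other runs 19.8 to 164. In Dppa5a-high cells Mki67 was 238 CPM in run 6 and 35.8 to 56.7 CPM in the other 4 runs with 10 cells. In these 5 runs the number of Mki67 UMIs per Top2a UMI was 0.1 to 0.348, below every one of the 3 lymphocyte groups in the same run. Hmgb2 was 2912 CPM in NK, 2836 in alpha-beta T and 2750 in gamma-delta T cells, 1264 in Dppa5a-high, 1043 in B and 743 in monocytes, and 252 to 519 CPM in the other 5.

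**Figure D4:**
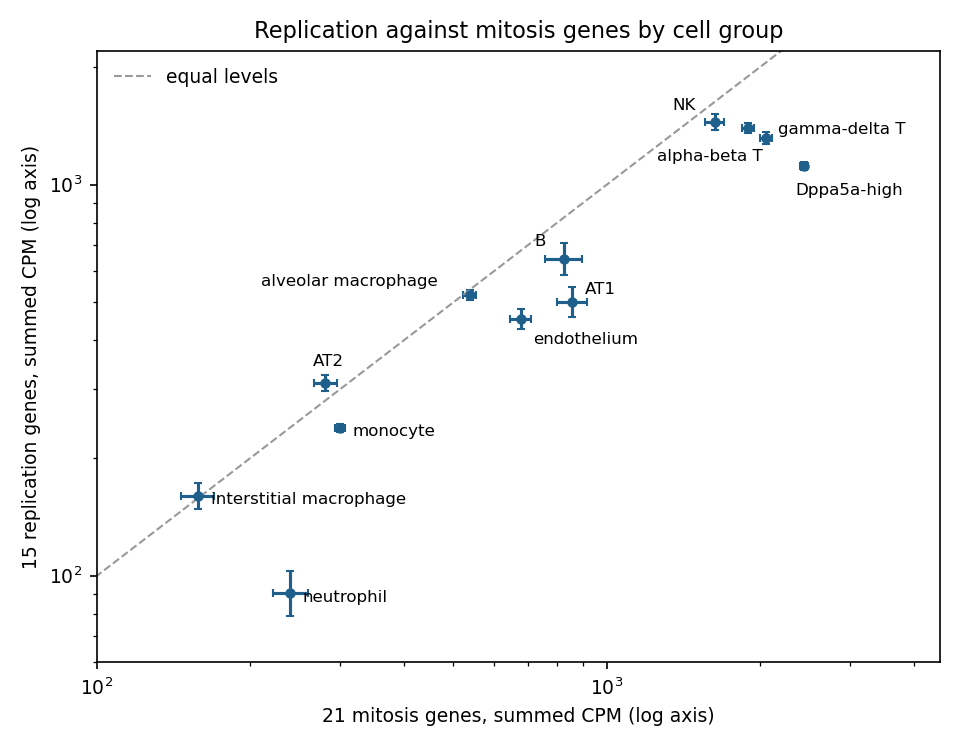
Summed CPM of the 15 replication genes (y, log axis) against that of the 21 mitosis genes (x, log axis) in each group and in neutrophils, with exact 95% intervals and a dashed line of equal levels. AT2 cells lie above the line, at 311 and 280 CPM. Of the 11 groups, Dppa5a-high cells lie farthest below it, at 1115 and 2437 CPM, and neutrophils lie still farther below, at 90.2 and 239 CPM.

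The balance between replication and mitosis genes differed between groups. For each group the UMIs of the 15 replication genes were divided by those of the 21 mitosis genes. The ratio was 1.11 in AT2 cells (1.03 to 1.19), 1.01 in interstitial macrophages (0.908 to 1.13), 0.971 in alveolar macrophages (0.932 to 1.01) and 0.887 in NK cells (0.831 to 0.946). It was 0.796 in monocytes, 0.785 in B, 0.736 in alpha-beta T, 0.67 in endothelium, 0.643 in gamma-delta T and 0.586 in AT1 cells (0.931 without cells holding 2 or more Dppa5a UMIs), and 0.458 in Dppa5a-high cells (0.444 to 0.472). Within positive cells alone it was under 1 in all 11 groups, from 0.387 in interstitial macrophages to 0.784 in NK cells, with AT2 cells at 0.577 and Dppa5a-high cells at 0.444. The ratio of AT2 cells therefore came in part from cells that are not positive, which held 199 CPM of replication and 65.8 CPM of mitosis genes. Replication genes were also above mitosis genes in such cells of every other group except Dppa5a-high cells (674 and 990 CPM). In gamma-delta T cells they were 529 and 232 CPM. The pooled ratio thus mixes positive and other cells and is not read as a difference in phase. Groups with like shares of positive cells also differed in it, as endothelium (10.8%) and alveolar macrophages (11%) did. Within positive cells these 2 groups had 0.393 (0.354 to 0.435) and 0.674 (0.638 to 0.71). The cause was not tested. The B cell value was 0.303 without run 7 and 1.14 without the 1 B cell that holds 2 or more Dppa5a UMIs.

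The members differed in how far they were restricted to positive cells, which hold 17.4% of all UMIs. Apart from Mki67 and Top2a, which set the class, the most restricted were Nusap1 (93.5% of its UMIs), Hmmr (91.3%), Cenpf (91%) and Ccna2 (90.7%). The 2 genes that set the class act around mitosis themselves, so the class favours genes of that phase. The least were Pcna (35.5%), Cks2 (45%), Mcm4 (49.6%) and Hmgb2 (50.1%). Pclaf had 86.5% and Rrm2 87.9%. In monocytes 29% of Hmgb2 UMIs and 18.5% of Pcna UMIs were in positive cells, against 82.3% and 76.6% in alpha-beta T cells.

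The levels of the members in positive cells differed between groups. Their summed level of the 40 genes was 13414 CPM in alpha-beta T, 12999 in NK and 12518 in gamma-delta T cells, and 6008 CPM in Dppa5a-high cells. It was 8565 in endothelium, 8212 in AT2, 7810 in B, 7788 in alveolar macrophages, 6678 in AT1, 5444 in monocytes and 1800 CPM in interstitial macrophages. The sum includes Mki67 and Top2a, and a deeper cell meets the rule at a lower level. Median depths of positive cells were 15799 UMIs in Dppa5a-high and 6816 in NK cells. Without Mki67, Top2a, Hmgb2 and Stmn1 it was 6221 CPM in alpha-beta T, 6002 in gamma-delta T, 5699 in NK and 3861 in Dppa5a-high cells. In UMIs per positive cell the remaining genes had 84.5, 74.1, 50 and 65, so the order of NK and Dppa5a-high cells turned. The part of depth was not tested. Pclaf in positive cells was 673 CPM in NK, 672 in alpha-beta T and 619 in gamma-delta T cells, and 31.4 CPM in Dppa5a-high cells (26.5 to 37). Stmn1 in positive cells was 1084 CPM in alpha-beta T, 1083 in NK, 982 in AT2 and 969 in alveolar macrophages and 203 CPM in Dppa5a-high cells. Hmgb2 in positive cells was 5029 in NK and 4958 in alpha-beta T cells and 511 CPM in interstitial macrophages.

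**Figure D5:**
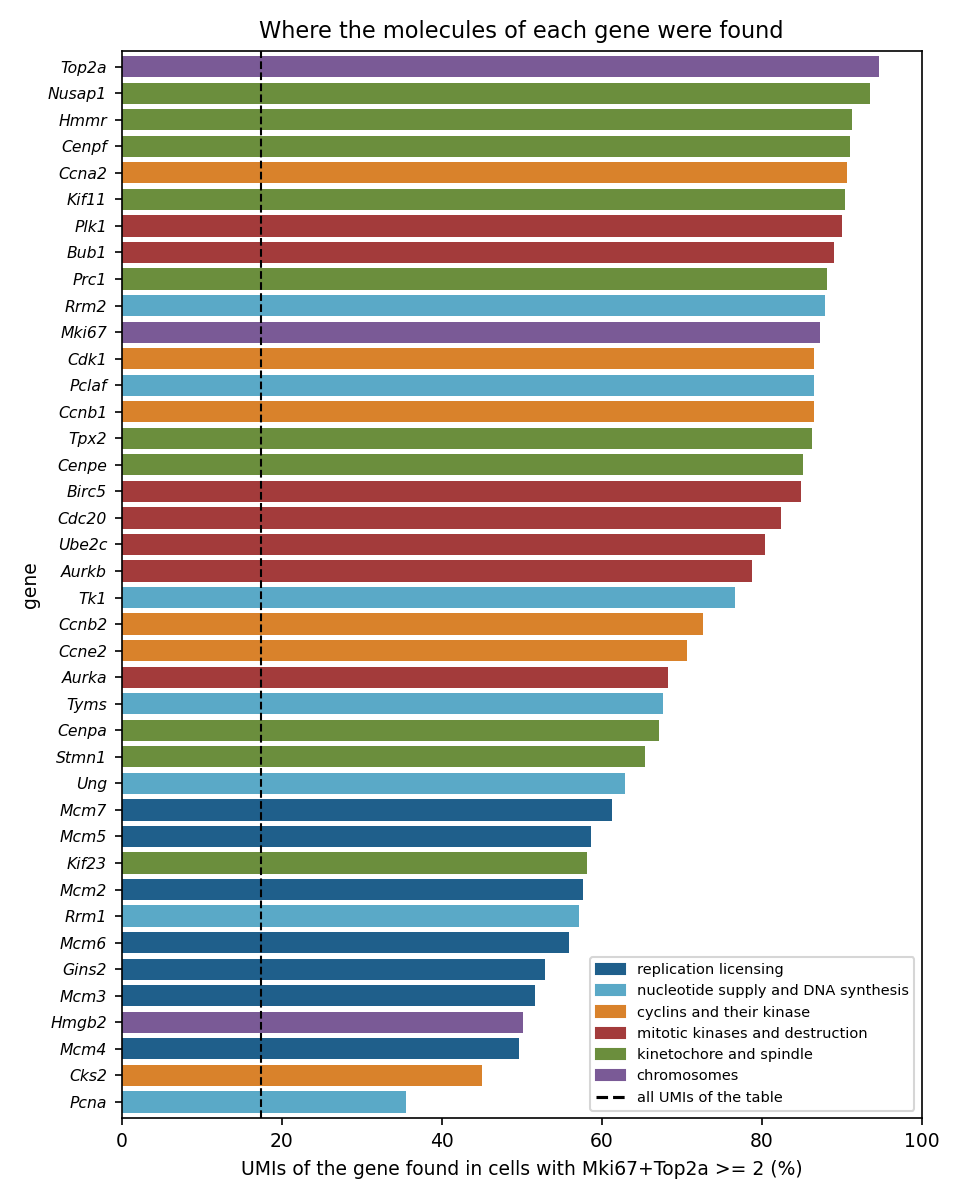
Share of each gene's UMIs (percent) that lies in positive cells, for the 40 genes, with the 17.4% of all UMIs in positive cells as the reference line. Nusap1, Hmmr, Cenpf and Ccna2 lie above 90% and Pcna is lowest at 35.5%.

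Genes outside the 40 were read from lists by role. Of 15 further replication genes, 11 were at least 2-fold higher in gamma-delta T (11.2% of all genes tested), 10 in NK (11.4%), 11 in alpha-beta T (10.5%) and 13 in Dppa5a-high cells (29.3%). Of 15 further mitosis genes the counts were 8, 11, 11 and 13 in the same order, beside the same shares of all genes. In AT1 cells, Dppa5a-holding cells included, 5 of 15 and 6 of the 12 tested were higher (26.6% of all genes). In the other 6 groups 0 to 2 genes of each list were. In endothelium these were 0 of 13 tested replication and 2 of 11 tested mitosis genes (22.4% of all genes). The counts were 1 of 13 and 2 of 10 in alveolar macrophages (5.84%) and 2 of 13 in each list in B cells (11.5%). None was higher in AT2 cells (18.3%), interstitial macrophages (2.99%) or monocytes (5.09%). Dut, which keeps uracil out of DNA, was 326 CPM in Dppa5a-high and 282 in gamma-delta T cells and 16.1 in interstitial macrophages. Smc4, a condensin subunit, was 357 CPM in alpha-beta T and 242 in gamma-delta T cells. Pola1, the catalytic subunit of DNA polymerase alpha, was 215 CPM in Dppa5a-high and 172 in AT1 cells, and Ect2, which drives cytokinesis, 132 and 84.3 CPM. Of 7 inhibitors of cyclin-dependent kinases, Cdkn1a (p21) was 320 CPM in interstitial macrophages, 231 in Dppa5a-high and 18.3 in alpha-beta T cells. Cdkn2b was 116 CPM in AT1 cells and 6.03 in endothelium, the next.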

How the data were processed

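The table holds raw UMI counts per gene and cell, deposited by the authors as 1 file for all libraries. Per the labels' protocols, 8 libraries were made with 10x Genomics 3′ V3.1 chemistry, and per the submitters' processing notes Cell Ranger 1.3.1 and mm10 were used. How strand and intron reads were handled is not given in the sources used here. Deposited cells have at least 800 genes and at most 9.99% mitochondrial UMIs; depth was 77020720 UMIs, with medians of 4425 UMIs and 1815 genes per cell. 0 columns belonged to other samples, and no column could be tied to a library.

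UMIs were summed over the cells of a group and scaled to CPM. Python 3.11.15, numpy 2.4.6, scipy 1.17.1, pandas 2.3.3, scanpy 1.11.5 and matplotlib 3.10.9 were used. UMIs of PCR copies are collapsed by design, and intervals cover counting error only. Folds were called from 2-fold where a gene reached 10 CPM in the group or in the other cells. Intervals and calls were tested on simulated data. Doublets were kept: Scrublet, run per run of barcodes, marked 56 cells (0.474%) by its own threshold, too few to be used, so an alternative left out the 193 cells with the highest scores, 28 of them positive. The members and all lists were chosen with earlier results of these data known. All 40 members are named by role; Mki67, Top2a and the 2 members of each role with the highest overall CPM are given in every group, and of other lists the 2 genes with the highest CPM in any group. Alternatives were a threshold of 3 UMIs, thinning, doublets or cells of several groups left out, equal weight per cell, no Hmgb2 and Stmn1, each run left out and, added after seeing the data, no cells with 2 or more Dppa5a UMIs a reference without Dppa5a-high cells, such cells left out of both sides for AT1, endothelium and B, and neutrophils outside the monocyte rule. A split of gamma-delta T cells is not reported here. The values without run 6 in the report were also singled out after seeing the data.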

Additional observations from a re-analysis of the deposited data

How the results depend on the processing

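All values rest on 1 pooled table, so no alternative has a test, and values that moved by less than their counting interval or the spread between runs are not listed. Of single gene levels that moved, only some are given. The share of positive cells depends on depth. Interstitial macrophages, monocytes, AT2 and B cells are not read as above the neutrophil background in this share when thinned to 2000 UMIs. The combined level of the pair in monocytes, AT2 and B cells was above that of neutrophils. No paired analysis was possible because no column could be tied to a library and its replicate number. The alternative without Dppa5a-holding cells was chosen after seeing the data. Thinning lowered the share in all 11 groups. With 3 UMIs in place of 2, the share of positive cells was 68.2% in Dppa5a-high, 9.01% in alveolar macrophage, 8.37% in endothelium, 2.96% in interstitial macrophage and 2.77% in monocyte. Thinned to 2000 UMIs, the share of positive cells was 2.98% in AT2, 5.98% in B, 32.8% in Dppa5a-high, 19.4% in NK, 16.3% in alpha-beta T, 4.82% in alveolar macrophage, 16.7% in gamma-delta T, 1.11% in interstitial macrophage and 1.68% in monocyte. In cells that met exactly 1 rule, the share of positive cells was 5.1% in AT1, 22.8% in alpha-beta T and 2.88% in monocyte. In cells that met exactly 1 rule, the summed level was 830 in AT1, 1149 in AT2, 2642 in B, 6560 in NK, 6659 in alpha-beta T, 2256 in endothelium, 5852 in gamma-delta T and 1110 in monocyte (CPM). In cells that met exactly 1 rule, the ratio of replication to mitosis UMIs was 1.14 in B, 0.95 in NK, 0.9 in alpha-beta T and 0.834 in monocyte. Without cells holding 2 or more Dppa5a UMIs, the share of positive cells was 4.46% in AT1. Without cells holding 2 or more Dppa5a UMIs, the summed level was 1140 in AT1, 1046 in AT2, 2501 in B, 7113 in alpha-beta T, 1914 in endothelium and 1363 in monocyte (CPM). Without cells holding 2 or more Dppa5a UMIs, the ratio of replication to mitosis UMIs was 0.931 in AT1, 1.49 in AT2, 1.14 in B, 0.745 in endothelium and 0.829 in monocyte. Without the cells of highest doublet score, the summed level was 1124 in AT2, 3020 in B, 7461 in alpha-beta T, 7292 in gamma-delta T, 589 in interstitial macrophage and 1370 in monocyte (CPM). With equal weight per cell, the summed level was 1221 in AT1, 1100 in AT2, 1839 in B, 5616 in Dppa5a-high, 5714 in NK, 5114 in alpha-beta T, 1811 in alveolar macrophage, 1953 in endothelium, 5415 in gamma-delta T, 731 in interstitial macrophage and 1289 in monocyte (CPM). Without Hmgb2 and Stmn1, the summed level was 1671 in AT1, 663 in AT2, 1724 in B, 4079 in Dppa5a-high, 3634 in NK, 3841 in alpha-beta T, 1197 in alveolar macrophage, 1355 in endothelium, 3922 in gamma-delta T, 342 in interstitial macrophage and 599 in monocyte (CPM). With each run left out in turn, the share of positive cells (percent) ranged from 9.82 to 20 in AT1, 4.3 to 6.46 in AT2, 11.4 to 14.8 in B, 78.6 to 79.6 in Dppa5a-high, 28.2 to 32.6 in NK, 26.1 to 30.6 in alpha-beta T, 10.6 to 11.5 in alveolar macrophage, 8.8 to 11.8 in endothelium, 26 to 35.7 in gamma-delta T, 4.01 to 5.92 in interstitial macrophage and 3.65 to 5.97 in monocyte. With each run left out in turn, the summed level (CPM) ranged from 1619 to 3211 in AT1, 963 to 1250 in AT2, 2635 to 3142 in B, 5362 to 5705 in Dppa5a-high, 6285 to 7832 in NK, 6911 to 7637 in alpha-beta T, 1746 to 1970 in alveolar macrophage, 1791 to 2303 in endothelium, 6765 to 7381 in gamma-delta T, 552 to 722 in interstitial macrophage and 1320 to 1492 in monocyte. With each run left out in turn, the ratio of replication to mitosis UMIs ranged from 0.505 to 0.656 in AT1, 0.988 to 1.48 in AT2, 0.303 to 0.865 in B, 0.424 to 0.48 in Dppa5a-high, 0.79 to 1.19 in NK, 0.673 to 0.84 in alpha-beta T, 0.913 to 1 in alveolar macrophage, 0.632 to 0.749 in endothelium, 0.591 to 0.712 in gamma-delta T, 0.907 to 1.23 in interstitial macrophage and 0.765 to 0.852 in monocyte. Mki67 in gamma-delta T cells was 121 to 307 CPM, lowest without run 6. For levels of members in their leading group, 33 values of 21 members moved with a run left out. Nusap1 in NK cells fell from 148 to 99.4 CPM without run 3. Ube2c in gamma-delta T cells fell from 293 to 224 CPM without run 1, and Kif11 in alpha-beta T cells from 83.4 to 67.7 CPM without run 6. The AT1 share was lowest without run 7 and highest without run 1, and the B cell ratio lowest without run 7. Causes were not tested.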

Other observations

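Cyclins of the D type, which start the cycle in answer to growth signals, were used differently by the groups. Ccnd2 was 345 CPM (333 to 358) in alveolar macrophages, 204 in NK cells and 7.4 (5.29 to 10.1) in Dppa5a-high cells. Ccnd1 was 166 CPM in endothelium and 101 in AT2 cells and 0.79 in gamma-delta T cells. Ccnd3 was 225 CPM in alpha-beta T and 212 in monocytes, and 71.3 in alveolar macrophages. Mybl2, the B-Myb factor of late cell cycle genes, was 214 CPM in Dppa5a-high cells, 62.5 in AT1 cells and 11.5 in alpha-beta T cells, and Mycn was 28.7 CPM in Dppa5a-high cells, where Myc was 0.74. Cdkn2a was 33.9 CPM in Dppa5a-high cells and at most 4.39 CPM in the other 10 groups.

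Some inhibitors differed between positive and other cells of the same group. Cdkn2c, which inhibits Cdk4 and Cdk6, was 37.1 CPM in positive and 1.9 CPM in other alveolar macrophages, a ratio of 19.5 (10.6 to 38.3). In endothelium it was 73.7 and 3.34 CPM, in alpha-beta T cells 44.3 and 8.49 CPM. Cdkn2b, another inhibitor of these kinases, ran the other way in AT1 cells, at 9.82 CPM (3 UMIs) in positive and 162 CPM in other cells. Of these 16 positive AT1 cells, 11 hold at least 2 Dppa5a UMIs, and the part of those cells in the Cdkn2b difference was not tested. Ccne1 was 42.9 CPM in positive and 3.64 CPM in other alpha-beta T cells, and 25.2 and 22.4 CPM in Dppa5a-high cells.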
